A study of Mus musculus with 10 samples.

Results

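The 7 genes described here are expressed in ependymal cells, and 1 of them, Cfap298, lies in the stretch of mouse chromosome 16 (Mmu16) that is duplicated in Dp1Yey mice. The other 6 (Foxj1, Ccdc153, Tmem212, Rarres2, Dynlrb2 and Enkur) lie on other chromosomes and are present in 2 copies in every mouse. They were chosen by name, with earlier results of the same arrays known, from the 19938 genes that could be named on the array, and each was measured by 1 probe set that is annotated to that gene alone. Because of that choice, their differences between genotypes are described without a test.

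RNA came from the whole hippocampus, left and right, of male mice aged 16 weeks, with 1 mouse per Affymetrix Mouse Gene 1.0 ST array. The 5 Dp1Yey mice carried Dp(16Lipi-Zbtb21)1Yey, an inherited duplication of the segment from Lipi to Zbtb21 present in every cell, which gives 3 copies of the genes in it. The 5 controls were littermates with 2 copies, so the 2 groups differed by the duplication. The labels give C57BL/6N as the background of both groups, whereas the methods of the study describe backcrossing towards C57BL/6J. Levels are RMA log2 values, on which a difference of 1 is a doubling of signal, and levels of different probe sets are not compared with each other. As a floor for signal without expression, the 90th percentile of the mean level of 1015 olfactory receptor genes was used, which was 5.45. All 10 genes of a hippocampal list lay above the floor, with a mean level of 9.48 to 9.63 in Dp1Yey and 9.42 to 9.61 in control mice. In a bulk sample, fewer cells of a type and less RNA per cell cannot be told apart.

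Ependymal cells line the brain ventricles, and the hippocampus borders the lateral ventricle, so a dissected hippocampus can carry some of this lining. Each ependymal cell bears a tuft of motile cilia, whose beat moves the cerebrospinal fluid. The cilium is built on an axoneme of microtubules, and dynein motors attached to it in inner and outer arms drive the beat. These arms are assembled in the cytoplasm by a set of helper proteins, and Cfap298 is one of the proteins required for ciliary motility and for the outer arms. Foxj1 is the transcription factor that switches on the motile cilia programme, together with factors of the RFX family, which bind the X-box motif. Enkur is a protein of the axoneme, Dynlrb2 is a light chain of dynein complexes, and Ccdc153 and Tmem212 serve as markers of ependymal cells. Rarres2 encodes chemerin, a secreted chemoattractant that is not part of the cilium and that other cell types also express.

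The sequence upstream of the start site was at hand for 5 of the 7 genes (RefSeq, GRCm38.p6), and those of Foxj1 and Rarres2 were not matched. In the 250 bases upstream, an X-box-like motif was searched on both strands as GTTNCCNGNAAC, GTTNCCNNGNAAC, GTTNCCNNNGNAAC or GTTNCCNNNNGNAAC, a form chosen after the promoters had been seen. A site matched on both strands was counted once. Cfap298 (chr16:90934850-90935099, minus strand) held 2 matches, the first of which began at position -188 from the start site. Dynlrb2 (chr8:116504765-116505014, plus strand) held 1 match, at position -51. Ccdc153, Tmem212 and Enkur (chr2:21205366-21205615, minus strand) held none. Below, Cfap298 is shown as the triplicated gene, Dynlrb2 as the gene in 2 copies with a match, and Enkur as the gene of the set whose level went most closely with that of Cfap298 from mouse to mouse over all 10 arrays. Capitals mark the X-box-like matches, and each sequence runs 5′ to 3′ in the direction of its gene.
Cfap298: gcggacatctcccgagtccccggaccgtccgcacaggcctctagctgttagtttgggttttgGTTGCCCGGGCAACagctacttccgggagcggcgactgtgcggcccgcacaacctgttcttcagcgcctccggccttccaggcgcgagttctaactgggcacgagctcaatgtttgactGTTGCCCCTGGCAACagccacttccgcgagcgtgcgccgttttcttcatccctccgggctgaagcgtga
Dynlrb2: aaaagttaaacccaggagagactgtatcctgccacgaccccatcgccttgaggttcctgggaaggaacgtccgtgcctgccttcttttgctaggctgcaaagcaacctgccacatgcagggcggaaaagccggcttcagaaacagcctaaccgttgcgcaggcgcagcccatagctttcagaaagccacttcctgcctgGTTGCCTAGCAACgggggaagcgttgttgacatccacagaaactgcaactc
Enkur: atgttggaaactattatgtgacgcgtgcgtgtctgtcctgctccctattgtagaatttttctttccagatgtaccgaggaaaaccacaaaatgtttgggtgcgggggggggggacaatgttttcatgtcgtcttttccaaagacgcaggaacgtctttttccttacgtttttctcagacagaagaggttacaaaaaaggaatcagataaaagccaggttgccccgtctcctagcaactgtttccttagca
The motif stood in 1.82% of all 27025 promoters of this length (492) and in 15 of the 125 available promoters (12.0%) of other motile cilia genes. It stood in 3 of 26 promoters of intraflagellar transport genes and in 0 of 12 of choroid plexus genes. A forkhead motif, GTAAACA on either strand, was in none of the 5 promoters, in 3.54% of all promoters and in 5.60% of those of motile cilia genes. Such matches describe letters in a window and not bound sites.

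Cfap298 (chr16:90925811-90934849 in mm10) was higher in every Dp1Yey mouse than in every control. Its log2 level was 9.10, 9.04, 8.90, 9.01 and 8.92 in Dp1Yey replicates 1 to 5 and 8.46, 8.08, 8.62, 8.43 and 8.55 in control replicates 1 to 5. The groups did not overlap, and control replicate 2 was the lowest mouse by a wide margin. The mean was 9.00 ± 0.081 (SD, n = 5) in Dp1Yey and 8.43 ± 0.21 (SD, n = 5) in controls. The difference was 0.57 with a standard error (SE) of 0.084, a 1.48-fold higher level with a 95% interval from 1.31 to 1.68. The interval holds the 1.5-fold that 3 copies against 2 would give. No p is given, because the choice of the gene used this contrast.

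Without control replicate 1, the difference for Cfap298 was 0.58 (SE 0.092, n = 5 and 4), or 1.49-fold (95% interval 1.30 to 1.72). Leaving out each mouse in turn gave differences from 0.48 to 0.62. Adjusted in the fit for the spread of each array, its interquartile range, the difference was 0.38. That spread was 3.47 to 3.54 log2 units on the Dp1Yey arrays and 3.40 to 3.51 on the control arrays, and its part in the difference was not tested.

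**Figure D1:**
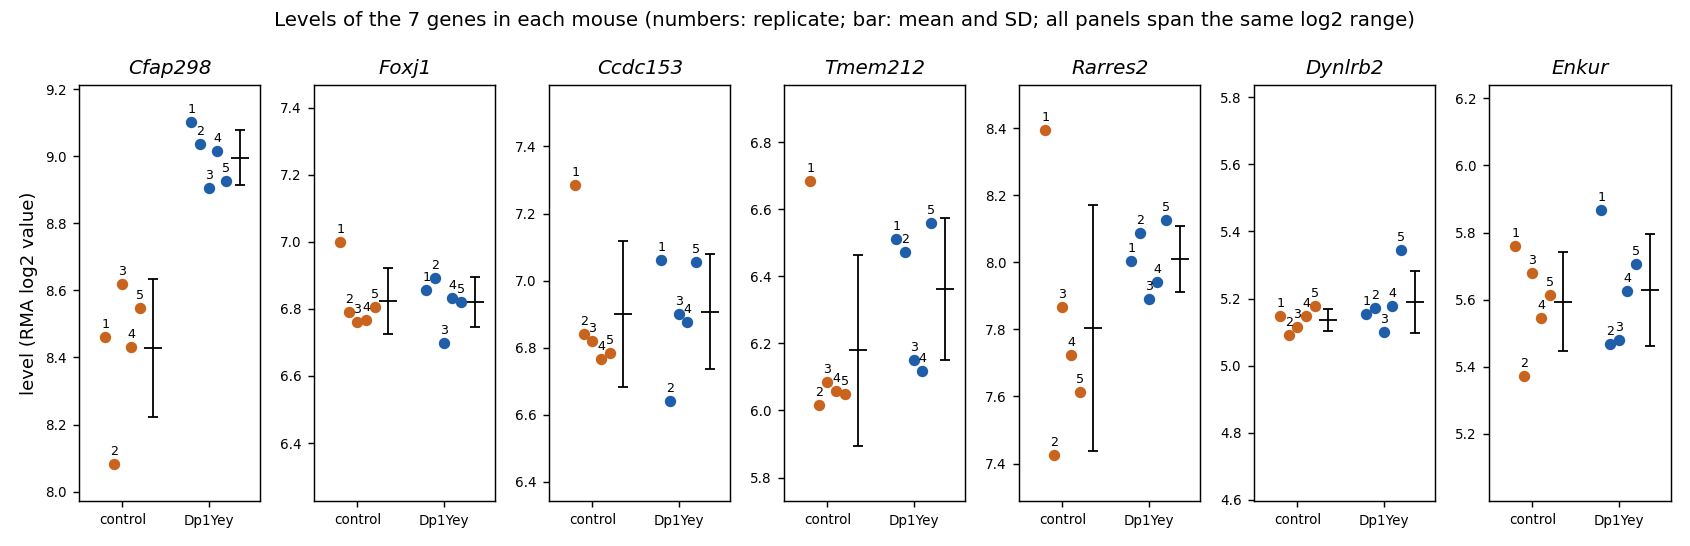
Log2 level (RMA) of each of the 7 genes in each mouse, with 1 panel per gene and the same span of log2 units in every panel. Orange points are control mice, blue points are Dp1Yey mice, numbers give the replicate, and the bars give mean and SD. Cfap298 separates the groups without overlap, whereas the other 6 genes overlap, and control replicate 1 is the highest of the controls for 5 of those 6.

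The duplicated interval held 143 measured genes, of which 96 lay above the floor. Their median difference was 0.32, or 1.25-fold, with quartiles of 0.13 and 0.49. Cfap298 ranked 10th among these 96 by its difference. Its direct neighbours had smaller values, and no RefSeq gene overlaps it. Synj1, the lipid phosphatase synaptojanin, lies just beyond the start of Cfap298 and was 0.39 higher (1.31-fold, SE 0.034, limma adjusted p = 0.0001). Paxbp1 rose by 0.27 (1.21-fold, adjusted p = 0.0109) and Urb1, a ribosome biogenesis factor, by 0.24 (1.18-fold, adjusted p = 0.0247) in the same fit. Eva1c differed by 0.085 (limma adjusted p = 0.333) and Mrap, an accessory protein of melanocortin receptors, by -0.0085 (limma adjusted p = 0.918). The remaining neighbour, 4932438H23Rik, lay below the floor. The differences between Cfap298 and its neighbours were not tested. Kcne2 and Clic6, genes of the choroid plexus inside the interval and named here after their values were seen, had differences of -0.50 (SE 0.13) and -0.46 (SE 0.33).

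**Figure D2:**
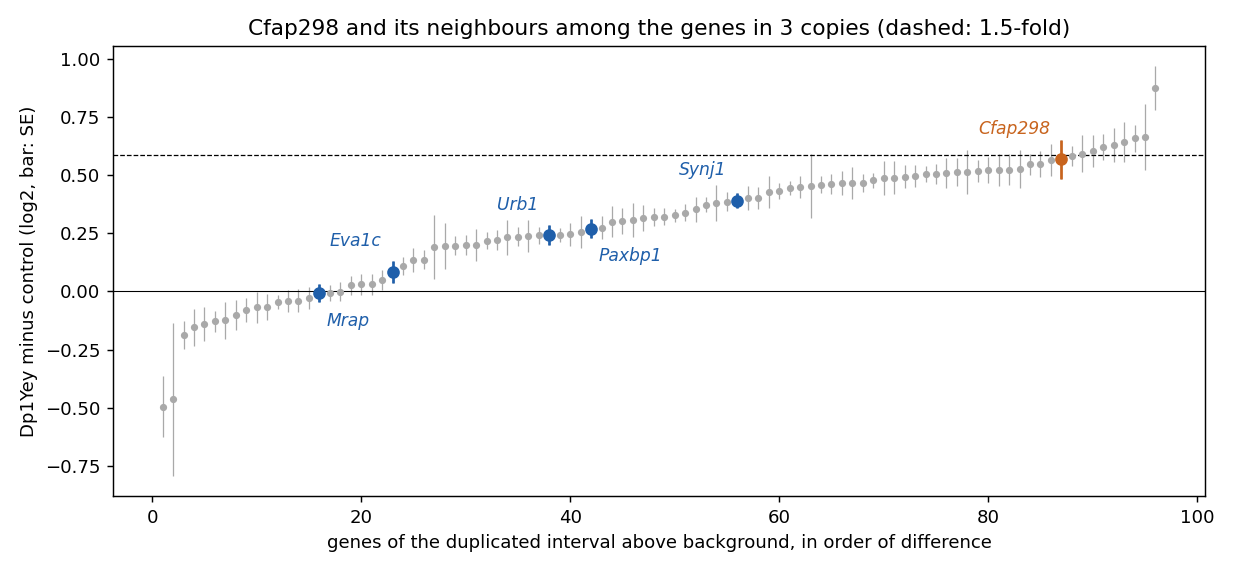
Difference between Dp1Yey and control mice (log2, with bars of 1 SE) for the 96 genes of the duplicated interval above the floor, in order of size. Cfap298 (orange, 0.57) lies next to the dashed line at 1.5-fold (0.585), above its measured neighbours Synj1 (0.39), Paxbp1 (0.27), Urb1 (0.24), Eva1c (0.085) and Mrap (-0.0085), shown in blue.

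None of the 6 genes in 2 copies separated the genotypes over all 10 mice. Foxj1 (chr11:116330704-116335499), the regulator of the programme, was at 6.86, 6.89, 6.70, 6.83 and 6.82 in Dp1Yey replicates 1 to 5 and at 7.00, 6.79, 6.76, 6.77 and 6.81 in control replicates 1 to 5. Control replicate 1 was the highest of all mice and the other controls lay inside the range of the Dp1Yey mice. Both means were 6.82 (SD 0.074 in Dp1Yey and 0.099 in controls, n = 5 each). The difference was -0.0047 (SE 0.052), with a 95% interval of the fold from 0.922 to 1.08.

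The ependymal markers Ccdc153 and Tmem212 had the same high control mouse. Ccdc153 (chr9:44240677-44247306) was at 7.06, 6.64, 6.90, 6.88 and 7.06 in Dp1Yey and at 7.29, 6.84, 6.82, 6.77 and 6.79 in controls. The lowest mouse was Dp1Yey replicate 2, and the difference of the means was 0.0072 (SE 0.10, 95% interval of the fold 0.859 to 1.18). Tmem212 (chr3:27866065-27896391) was at 6.51, 6.47, 6.15, 6.12 and 6.56 in Dp1Yey and at 6.69, 6.02, 6.08, 6.06 and 6.05 in controls. Apart from control replicate 1, the controls lay close together and just below the lowest Dp1Yey mouse, while Dp1Yey mice fell into 3 higher and 2 lower values. Over all mice the difference for Tmem212 was 0.18 (SE 0.13), or 1.14-fold (95% interval 0.932 to 1.38).

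Rarres2 (chr6:48569696-48572845), the secreted protein of the set, was at 8.00, 8.09, 7.89, 7.94 and 8.13 in Dp1Yey and at 8.39, 7.42, 7.87, 7.72 and 7.61 in controls. The controls spread widely, with an SD of 0.37 against 0.099 in Dp1Yey, and both the highest and the lowest mouse were controls. The difference was 0.20 (SE 0.14), or 1.15-fold (95% interval 0.933 to 1.42).

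The structural genes differed little between the genotypes. Dynlrb2 (chr8:116505015-116515915) was at 5.15, 5.17, 5.10, 5.18 and 5.34 in Dp1Yey and at 5.15, 5.09, 5.12, 5.15 and 5.18 in controls. Every mouse lay below the floor of 5.45, so its values may hold little signal from the transcript, and the difference of 0.054 (SE 0.044, 95% interval of the fold 0.972 to 1.11) is given for completeness. Enkur (chr2:21180731-21205365) was at 5.87, 5.47, 5.48, 5.63 and 5.71 in Dp1Yey and at 5.76, 5.37, 5.68, 5.54 and 5.61 in controls. These ranges overlapped almost fully, and some mice lay near the floor. The difference for Enkur was 0.036 (SE 0.085, 95% interval of the fold 0.902 to 1.17).

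Control replicate 1 was thus the highest control for 5 of the 6 genes in 2 copies and the highest of all 10 mice for 4 of them. Without that mouse, Rarres2 lay between 7.89 and 8.13 in Dp1Yey and reached at most 7.87 in controls, and the difference became 0.35 (SE 0.081), or 1.28-fold (95% interval 1.13 to 1.44). Tmem212 likewise had a lowest Dp1Yey value of 6.12 and a highest remaining control value of 6.08, with a difference of 0.31 (SE 0.089), or 1.24-fold (95% interval 1.08 to 1.42). These 2 genes then no longer overlapped between the groups, beside 3.57% of all genes that did not overlap in this direction without control replicate 1 and 2.4% with it. Both gaps between the groups were narrow, and leaving out the highest control raises the difference by construction.

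The other 4 genes still overlapped without control replicate 1, with differences of 0.039 (SE 0.042) for Foxj1, 0.10 (SE 0.075) for Ccdc153, 0.057 (SE 0.048) for Dynlrb2 and 0.078 (SE 0.086) for Enkur. The median difference of the 6 genes was 0.045 over all mice and 0.091 without control replicate 1, and 5 and then 6 of the 6 differences were positive.

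The mean level of the 6 genes in 2 copies differed more between mice of 1 genotype than between genotypes. It was 6.58, 6.46, 6.37, 6.43 and 6.60 in Dp1Yey replicates 1 to 5 and 6.71, 6.26, 6.39, 6.34 and 6.34 in control replicates 1 to 5. Control replicate 1 stood 0.31 above the mean of its group, and control replicate 2 was 0.15 below it. Among Dp1Yey mice, replicates 1 and 5 stood highest and replicate 3 lowest.

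The 6 genes shared part of this variation. After the group means were subtracted, the Pearson r of each gene with the mean of the other 5, over 10 arrays, was 0.88 for Tmem212, 0.83 for Rarres2, 0.75 for Foxj1, 0.73 for Ccdc153, 0.67 for Enkur and 0.36 for Dynlrb2. Without control replicate 1 these values were 0.65, 0.49, 0.29, 0.28, 0.69 and 0.58, so the likeness of Foxj1, Ccdc153 and Rarres2 rested in large part on that mouse. Cfap298 had an r of 0.34 with the mean of the 6 genes, and 0.49 without control replicate 1. Its closest partner over all arrays was Enkur, at 0.65 (0.67 without control replicate 1), while without that mouse its r with Rarres2 was 0.71 (0.43 with it). These are descriptions over arrays that share 1 normalisation, and no p is attached to them.

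The genes that went most closely with the mean of the 6 were other genes of motile cilia. Among 15156 genes above the floor outside the set, the 10 with the highest r were Rsph4a (0.990), Ak7 (0.979), Dnali1 (0.979), Cfap54 (0.976), Sntn (0.973), Cfap65 (0.972), Cdhr3 (0.965), Cfap161 (0.963), 2410004P03Rik (0.951) and Ifi27 (0.943), over 10 arrays. Of these, 7 stood in the lists of motile cilia genes, the exceptions being Cdhr3, 2410004P03Rik and the interferon-inducible Ifi27. Rsph4a, a radial spoke protein, was at 6.82, 6.59, 6.32, 6.56 and 6.93 in Dp1Yey and at 7.48, 6.34, 6.62, 6.43 and 6.60 in controls. It was highest in control replicate 1 and, among Dp1Yey mice, in replicates 5 and 1, in the same order as the mean of the 6 genes at the top of each group.

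For these 10 genes, which were picked for their r over arrays that include the same mice, r without control replicate 1 was 0.965 for Rsph4a, 0.936 for Dnali1, a light chain of inner dynein arms, 0.927 for Ak7, an adenylate kinase of cilia, and 0.918 for Cfap54. It was 0.817 for Ifi27, the lowest of the 10. Spearman's rho over 10 arrays ran from 0.709 for Ifi27 to 0.988 for Rsph4a, and r without the 2 arrays farthest from the median of the 6-gene mean ran from 0.716 for Ifi27 to 0.954 for Dnali1.

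**Figure D3:**
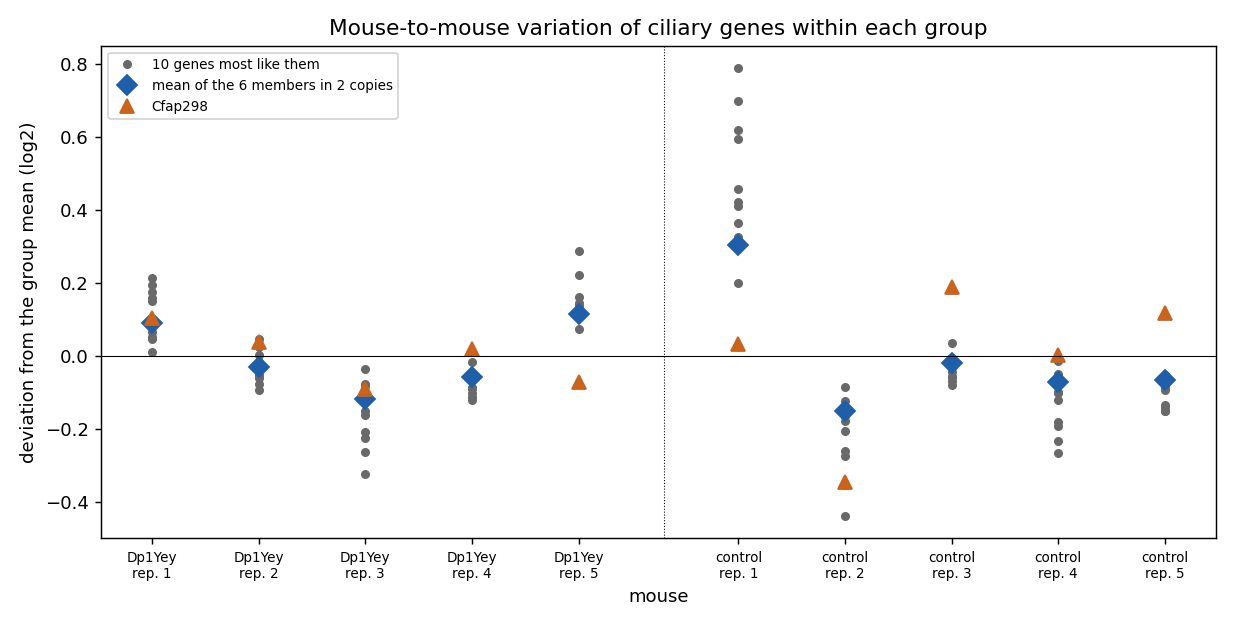
Deviation from the group mean (log2) in each of the 10 mice, for the mean of the 6 genes in 2 copies (blue diamonds), for Cfap298 (orange triangles) and for the 10 genes most like that mean (grey points). The blue diamonds and grey points stand highest in control replicate 1 (0.31 for the mean of the 6) and are low in control replicate 2 and Dp1Yey replicate 3. Cfap298 departs most clearly from both in control replicates 1, 3 and 5 and in Dp1Yey replicate 5. In control replicate 2 it lies below the blue diamond (-0.34 beside -0.15), among the grey points.

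The same likeness was counted over whole lists. An r above 0.8 with the mean of the 6 was found for 27 of 123 motile cilia genes above the floor (22.0%) and for 221 of the 15156 genes (1.46%). Without control replicate 1 these counts were 9 (7.32%) and 51 (0.337%). By list, 18 of 50 genes of the axoneme, 5 of 18 further ependymal markers, 3 of 23 dynein arm genes and 1 of 16 dynein assembly genes passed that value over all arrays, and 7, 1, 1 and 0 did so without control replicate 1. None of 16 ciliogenic regulators, 32 genes of intraflagellar transport or 16 genes of the neuronal primary cilium passed it, with or without that mouse. Neighbouring tissues also held genes above 0.8 over all arrays. These were 2 of 9 for thalamus and habenula (22.2%), 2 of 16 for choroid plexus (12.5%) and 1 of 11 for endothelium (9.09%). Without control replicate 1, each of these lists held 0. Meninges and fibroblasts, astrocytes, oligodendrocytes, blood and hippocampal neurons held none either way. The median r was 0.70 for the axoneme list, 0.74 for the ependymal markers and 0.56 for the dynein arms, and fell to 0.43, 0.35 and 0.19 without control replicate 1. It was -0.11 for the ciliogenic regulators, 0.11 for intraflagellar transport and -0.026 for all genes over all arrays. Over the 123 motile cilia genes it was 0.54, and 0.22 without that mouse, so much of the likeness at the level of lists went with 1 control. Intraflagellar transport and the primary cilium also serve neurons and glia.

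The wider motile cilia genes were compared between the genotypes with limma, over 148 measured genes in 5 lists that hold none of the 7 genes and none of the interval. Of these, 0 passed an adjusted p of 0.05 in either direction, beside 0.797% of all genes (0.687% higher and 0.11% lower), the smallest adjusted p being 0.0773. Here and below, the shares for all genes include the 143 genes of the duplicated interval, which the lists leave out. At an unadjusted p under 0.05, 13 were higher and 12 lower in Dp1Yey, beside 8.75% and 10.8% of all genes. The median difference was -0.011 beside -0.015 for all genes, and 64 of 148 differences were positive (43.2%, beside 42.1% of all genes). The lists were thus close to all genes by count and by median. The rank statistic of the kind the study used, rewritten for these values, called 5 higher (Cd24a, Cfap126, Fam183b, Meig1 and Pltp) and 1 lower (Dnah7b), beside 2.46% and 0.993% of all genes. Cfap126, Fam183b and Pltp are named after their values were seen.

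Within these lists the regulators of ciliogenesis had a median difference of -0.038 over 18 genes. Rfx3, one of the X-box binding factors, differed by -0.13 (SE 0.043, limma adjusted p = 0.137), Gmnc, which starts the multiciliated cell programme, by 0.18 (SE 0.073, adjusted p = 0.211) and Ccno, which acts in centriole amplification, by -0.14 (SE 0.059, adjusted p = 0.225). The 18 genes of dynein assembly, the group to which Cfap298 is related by function, had a median of -0.011. Among them, Lrrc6 (Dnaaf11) differed by 0.17 (SE 0.054, adjusted p = 0.144 in limma), Ruvbl1 by 0.17 (SE 0.059, adjusted p = 0.171) and Wdr92 (Dnaaf10) by 0.11 (SE 0.044, adjusted p = 0.224). No gene of either list was called.

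The dynein arms had a median of -0.041 over 30 genes, and the smallest adjusted p belonged to the inner arm heavy chain Dnah7b. It was at 5.84, 5.76, 5.98, 5.77 and 5.94 in Dp1Yey and at 6.08, 6.17, 5.97, 6.20 and 6.04 in controls, a difference of -0.23 (SE 0.057, limma adjusted p = 0.0773). The groups overlapped only by control replicate 3 and Dp1Yey replicate 3. Dnal1, an outer arm light chain, differed by 0.19 (SE 0.068, adjusted p = 0.165) in limma and Armc4, which docks outer arms, by -0.12 (SE 0.046, adjusted p = 0.181). Over 61 genes of axoneme structure the median was -0.006, with differences of 0.17 for Iqcg (SE 0.056, limma adjusted p = 0.158), 0.16 for Iqca (SE 0.056, adjusted p = 0.162) and -0.13 for the tektin Tekt3 (SE 0.045, adjusted p = 0.165). Spag6l, a central pair protein of that list, differed by 0.20 (SE 0.10, limma adjusted p = 0.304). Armc4 and Tekt3 lay below the floor by mean level, so their values may hold little signal. With the probe sets of a gene averaged, the difference was -0.056 for Armc4, 0.042 for Iqca and -0.18 for Dnah7b.

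Other ependymal markers had a median of 0.018 over 21 genes, and 57.1% of their differences were positive, beside 42.1% of all genes. In limma 4 passed an unadjusted p of 0.05 as higher and 0 as lower, beside 8.75% and 10.8% of all genes. The rank statistic called 4 of the 21 higher and 0 lower, beside 2.46% and 0.993% of all genes. Meig1, known from sperm flagella, was at 8.71, 8.71, 8.46, 8.57 and 8.83 in Dp1Yey and at 8.50, 7.75, 8.23, 8.19 and 8.33 in controls. Of the controls, replicate 1 alone reached the range of the Dp1Yey mice. The difference for Meig1 was 0.46 (SE 0.12, limma adjusted p = 0.0894), or 1.37-fold, and 0.53 without control replicate 1 (adjusted p = 0.0545). The surface protein Cd24a differed by 0.31 (SE 0.11, limma adjusted p = 0.162), with control replicate 2 again the lowest mouse at 7.59.

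Leaving out control replicate 1 changed this picture in part. That mouse had the highest mean level of the controls over the 148 genes, at 6.59 beside at most 6.41 in the others. Leaving it out thus raises the differences by construction, and the counts and adjusted p below are no independent evidence of a difference. The median over the 148 genes was then 0.012, 83 differences were positive, and 30 genes were past an unadjusted p of 0.05 upwards and 6 downwards, beside 9.03% and 9.53% of all genes. In limma 2 genes were called higher, beside 0.722% of all genes called in either direction (0.647% higher), namely Pltp, a phospholipid transfer protein (0.33, adjusted p = 0.00702), and Tm4sf1, a membrane protein also found in endothelium (0.22, adjusted p = 0.0194). Both are in the list of ependymal markers, whose median became 0.14, and both are named here after their values were seen. They did not follow the mean of the 6 genes among the remaining 9 arrays, with r of -0.077 for Pltp and -0.21 for Tm4sf1. Lists of other cell types had medians of the same size without control replicate 1, at 0.18 for meninges and fibroblasts, 0.13 for oligodendrocytes and 0.12 for endothelium. Of the endothelial genes, Tek (0.33, adjusted p = 0.0421) and Slco1a4 (0.38, adjusted p = 0.0436) were then called higher in limma. The part of these cell types in the shift of the ependymal markers was not tested. The groups did not overlap for 8 of the 148 genes that were higher in Dp1Yey and for 1 that was lower, beside 3.57% and 3.36% of all genes. Over all 10 mice these counts were 0 and 1, beside 2.4% and 2.46%.

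Intraflagellar transport carries cargo along primary and motile cilia alike. None of its 32 measured genes was called in limma, and the median difference was 0.022. In the same fit 8 passed an unadjusted p of 0.05 as higher and 0 as lower, beside 8.75% and 10.8% of all genes. The groups did not overlap for 3 of the 32 that were higher and 0 that were lower, beside 2.4% and 2.46% of all genes. Ift52, a subunit of the anterograde complex, was at 8.59, 8.57, 8.57, 8.49 and 8.65 in Dp1Yey and at 8.46, 8.36, 8.43, 8.35 and 8.40 in controls. All Dp1Yey mice lay above all controls, and the difference was 0.17 (SE 0.037, limma adjusted p = 0.0561), which did not pass. It passed under 3 other settings (limma adjusted p with median centring 0.0186, with array weights 0.0456 and without Dp1Yey replicate 4 0.0475) and not under 16, with adjusted p up to 0.291 under the interquartile range as covariate. Hspb11, known as Ift25, differed by 0.21 (SE 0.061, limma adjusted p = 0.122) and its partner Ift27 by 0.12 (SE 0.040, adjusted p = 0.150). Of 16 genes of the neuronal primary cilium none was called. Sstr3, a somatostatin receptor of that cilium, differed by -0.21 (SE 0.051, limma adjusted p = 0.0773). It was the 1 gene of these 16 without overlap, beside 2.46% of all genes that were lower without overlap.

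**Figure D4:**
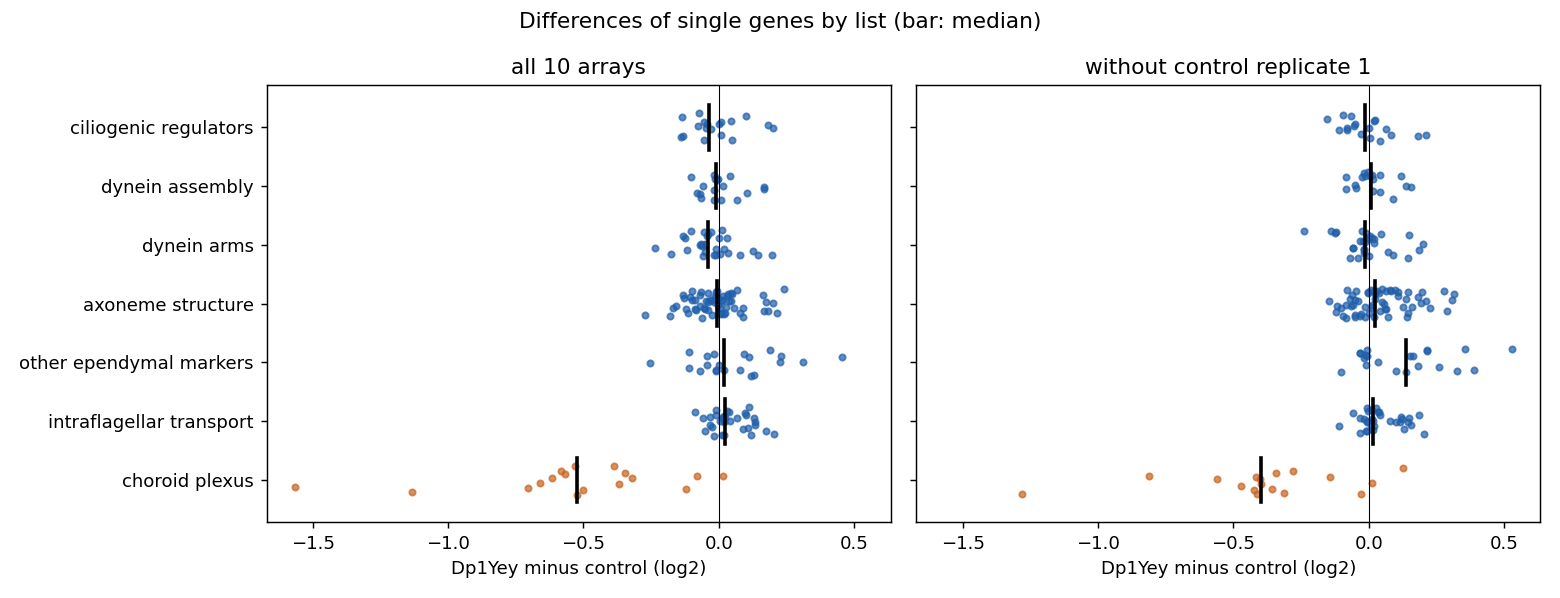
Difference between Dp1Yey and control mice (log2) of each measured gene of 7 lists, over all 10 arrays (left) and without control replicate 1 (right), with a black bar at the median of the list. The medians of the cilia lists lie near 0 on the left, from -0.041 for dynein arms to 0.022 for intraflagellar transport, and the median of the ependymal markers moves to 0.14 on the right, while that of the choroid plexus is -0.52 and -0.40.

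By mean level, several lists of markers of tissues next to the ependyma were also highest among controls in replicate 1, but did not share the order of the other mice. The choroid plexus, which hangs in the ventricle and makes cerebrospinal fluid, had 17 measured genes on 2-copy chromosomal segments. Their mean level lay between 6.59 and 7.07 in Dp1Yey and between 6.68 and 7.94 in controls. Control replicate 1 was the highest at 7.94, and the next control was at 7.72. That gap was 0.175 of the range of all controls, beside 0.867 for the motile cilia lists above the floor. None was called in limma, 11 passed an unadjusted p of 0.05 as lower and 0 as higher, beside 10.8% and 8.75% of all genes, and 16 of 17 differences were negative. Without control replicate 3, 4 were called lower in limma, Trpv4 (adjusted p = 0.00393), Aqp1 (0.00643), Slc4a5 (0.0419) and Folr1 (0.0483), the last named after its values were seen. Control replicate 3 was the lowest control for this list, at 6.79 over the genes above the floor. Leaving it out makes the differences more negative by construction, and every other limma setting called 0 or 1 gene of the list lower. Over all 10 mice, the rank statistic called 7 of the 17 genes lower and 0 higher, beside 0.993% and 2.46% of all genes. Ttr, the transthyretin transport protein, was at 10.46, 9.37, 9.20, 11.95 and 11.32 in Dp1Yey and at 13.16, 10.50, 10.26, 13.09 and 13.11 in controls, a difference of -1.57 (SE 0.70, limma adjusted p = 0.244). Control replicates 1, 4 and 5 were high for Ttr, whereas of these 3 only replicate 1 was high for the ependymal genes. Aqp1, the water channel of the plexus, differed by -0.39 (SE 0.092, limma adjusted p = 0.0759), and Trpv4 by -0.37 (SE 0.079, adjusted p = 0.0549). Aqp1 was the 1 gene of these 17 without overlap, beside 2.46% of all genes that were lower without overlap. Trpv4 also passed with the filter at the floor (adjusted p = 0.0413), the trend and robust prior (0.0367) and array weights (0.0352) in limma.

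The median difference of the choroid plexus genes was opposite in sign to the differences of Tmem212 and Rarres2. The median r of its 16 genes above the floor with the mean of the 6 genes was 0.50 over all arrays and 0.15 without control replicate 1. Without that mouse it was -0.13 for meninges and fibroblasts, -0.32 for endothelium and 0.011 for oligodendrocytes. Control replicate 1 was also the highest control by mean level in the lists of meninges and fibroblasts (7.90, 15 genes), endothelium (8.70, 11 genes), oligodendrocytes (11.2, 9 genes) and thalamus and habenula (8.18, 10 genes). It was not the highest for astrocytes, hippocampal neurons or the 2 measured blood genes. The ranges of mean level in Dp1Yey were 7.55 to 8.15 for meninges, 8.55 to 8.72 for endothelium, 10.9 to 11.4 for oligodendrocytes and 7.95 to 8.09 for thalamus and habenula. In limma over all mice, 1 gene of these lists was called, the tachykinin gene Tac2 of the thalamus and habenula list, which was higher in Dp1Yey (adjusted p = 0.0197). The part of these cell types in the ependymal values was not tested.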

How the data were processed

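Hippocampal RNA of 5 Dp1Yey and 5 control mice was measured on Affymetrix Mouse Gene 1.0 ST arrays. The authors normalised the arrays with RMA and deposited log2 values for 35556 probe sets, annotated on mm10. The sources used here do not say which arrays entered that normalisation. RMA makes the intensity distributions of arrays alike and shrinks differences at low signal. Of the probe sets, 21789 carried 1 gene symbol, 1621 several and 12146 none, and the probe set of highest mean was kept for each of 19938 genes, of which 19855 matched RefSeq (GRCm38.p6) by Entrez identifier.

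Groups came from the sample labels. Differences were fitted with limma 3.58.1 (lmFit, eBayes, two-sided, R 4.3.3) over all genes, with Benjamini-Hochberg adjustment and a threshold of 0.05. The fit was tested on simulated data. The members and lists were chosen with earlier results of these data known, and members received no p. Genes named were the 7 members, 3 measured interval genes on each side of Cfap298, up to 3 genes of smallest p and the 2 of highest mean of each list, and the 10 genes most like the members. Not all of them are given. Likeness was Pearson r after subtraction of group means. No 2 arrays shared over 0.067% of their values exactly. The labels call the replicates biological, and precision is limited by the 10 arrays.

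Alternatives were quantile normalisation, median centring, averaging the probe sets of a gene, a filter at the floor, a trend and robust prior, array weights, a replicate block, the interquartile range as covariate, leaving out mice, and a rewritten rank statistic of the kind the study used.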

Additional observations from a re-analysis of the deposited data

Results flagged for a closer look

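Groups of 5 mice of either genotype, 20 in all, were examined for a single value far from the rest. Such a value was found in 4, all of them control groups, and each time it was control replicate 1, above the other controls. Chance alone gives about 1 in 20 for separate groups, whereas these groups shared mice and genes. The gap of control replicate 1 to the nearest control was taken as a share of the range of all controls. It was 0.809 for Foxj1, 0.855 for Ccdc153, 0.897 for Tmem212 and 0.867 for the mean level of the motile cilia lists above the floor. The critical value was 0.71. That mouse had been singled out from earlier results of these arrays when the comparison was chosen, and the 4 values come from it alone, so they describe it and are no independent evidence that it stands apart.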

How the results depend on the processing

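Over all genes, limma called 137 higher and 22 lower. The calls were 41 lower with quantile normalisation, 294 higher and 14 lower with median centring, 36 lower with the trend and robust prior, 46 lower with array weights, 44 higher and 2 lower with the interquartile range as covariate, 6 lower without control replicates 1 and 2, and 491 higher and 198 lower by the rank statistic. Leaving out 1 mouse gave 65 to 166 higher and 3 to 70 lower: 80 and 7 without Dp1Yey replicate 1, 83 and 3 without replicate 2, 65 and 5 without replicate 3, 10 lower without replicate 4, and, for controls, 12 lower without replicate 2, 70 lower without replicate 3, 68 and 9 without replicate 4 and 37 lower without replicate 5.

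In the motile cilia lists, limma called 0 genes higher or lower over all 10 mice (13 and 12 at an unadjusted p under 0.05). Leaving out 1 mouse gave 0 to 2 higher, leaving out control replicates 1 and 2 gave 3 (Meig1, Pltp and Tm4sf1), and the rank statistic gave 5 higher (Cd24a, Cfap126, Fam183b, Meig1 and Pltp) and 1 lower (Dnah7b). The median of these lists was 0.035 with median centring, and -0.025 to 0.012 when 1 mouse was left out. Its sign also turned with quantile normalisation (0.020), with the interquartile range (0.019), and without control replicates 1 and 2 (0.027).

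The difference for Cfap298 was 0.375 with the interquartile range and 0.48 to 0.62 when 1 mouse was left out. The ranges when 1 mouse was left out were -0.023 to 0.039 for Foxj1, -0.031 to 0.10 for Ccdc153, 0.13 to 0.31 for Tmem212, 0.11 to 0.35 for Rarres2, 0.015 to 0.076 for Dynlrb2 and -0.023 to 0.078 for Enkur. Signs of Foxj1, Ccdc153 and Enkur, all near 0, turned under some settings. The cause of these changes was not tested. The labels do not say whether replicate numbers pair the mice. Same-numbered mice had correlations of deviations of 0.062, 0.0088, 0.040, 0.22 and -0.33, which cannot settle that. With a replicate block, calls were 90 higher and 4 lower over all genes and 0 in the motile cilia lists, and in the choroid plexus list Ttr passed (-1.57, limma adjusted p = 0.026). Signal near the floor limits what can be seen for Dynlrb2 and Enkur.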
